A study of Mus musculus with 18 samples.

Results

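The collagen genes of mouse lung EpCAM+ cells were taken as every gene whose symbol consists of Col, a number, the letter a and a second number. The annotation holds 44 such symbols, of which 34 were among the 15544 genes with a level and 33 passed the filter on low levels. The rule uses names alone and no measured value. The data came from RNA sequencing of 18 libraries, each of total RNA from lung cells isolated with magnetic beads against EpCAM, a surface protein of epithelial cells, from mice aged 10 to 12 weeks. Falcor, a long non-coding RNA gene, lies beside Foxa2, whose protein is a transcription factor of the forkhead family active in lung epithelium. Of the 4 genotypes, Double-Het (Falcor+/-;Foxa2+/-, replicates 15 to 18) and Foxa2+/- (replicates 11 to 14) have 4 libraries each, and Falcor-/- (replicates 6 to 10) and wild type (replicates 1 to 5) have 5 each. The labels name no Cre line, transgene or treatment for any genotype. They do not state whether each library came from a separate animal, so p-values measure the spread between these libraries.

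Collagens are secreted or membrane-bound proteins of 3 chains wound into a triple helix, and each gene encodes 1 kind of chain. Fibrillar collagens build the tensile fibrils of the lung interstitium, type IV collagen builds the sheet-like basement membrane under epithelium and endothelium, and type VI collagen builds beaded filaments that link cells to both. Transmembrane collagens stay anchored in the cell surface, and the fibril-associated, multiplexin and short-chain collagens decorate fibrils or basement membranes. In lung, fibroblasts are the main source of fibrillar and type VI collagen, whereas basement membrane collagen is made by epithelial, endothelial and mesenchymal cells alike.

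Sequences upstream of the transcription start are given for the 3 chains of type VI collagen, which did not change alike across the genotypes, and for Col13a1, which was lowest in both genotypes with 1 Foxa2 allele. Each sequence is the 250 bases before the gene's start in RefSeq on GRCm38.p6, read 5′ to 3′ on the minus strand, on which all 4 genes lie. The authors' own alignment used mm9, so these coordinates do not belong to their files. The positions are chr10:76726045-76726294 for Col6a1, chr10:76623631-76623880 for Col6a2, chr1:90843972-90844221 for Col6a3 and chr10:61979109-61979358 for Col13a1. Capitals mark a match, on either strand, to the GC box GGGCGG, the CCAAT box CCAAT, the forkhead core TGTTTAC or the TATA box TATAAA.
Col6a1: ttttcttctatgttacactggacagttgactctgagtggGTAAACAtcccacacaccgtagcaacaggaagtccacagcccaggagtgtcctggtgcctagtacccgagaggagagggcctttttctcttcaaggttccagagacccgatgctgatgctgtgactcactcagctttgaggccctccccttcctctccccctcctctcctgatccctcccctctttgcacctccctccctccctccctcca
Col6a2: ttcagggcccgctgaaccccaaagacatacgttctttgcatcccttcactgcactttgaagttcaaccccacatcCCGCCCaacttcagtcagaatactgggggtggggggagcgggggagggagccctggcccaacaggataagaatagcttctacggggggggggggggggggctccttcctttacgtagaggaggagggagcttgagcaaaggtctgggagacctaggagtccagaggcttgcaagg
Col6a3: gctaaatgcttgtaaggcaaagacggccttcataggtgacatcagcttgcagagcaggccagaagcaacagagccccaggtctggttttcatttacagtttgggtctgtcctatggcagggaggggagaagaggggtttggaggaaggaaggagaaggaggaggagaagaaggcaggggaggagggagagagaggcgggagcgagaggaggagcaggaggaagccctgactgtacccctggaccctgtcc
Col13a1: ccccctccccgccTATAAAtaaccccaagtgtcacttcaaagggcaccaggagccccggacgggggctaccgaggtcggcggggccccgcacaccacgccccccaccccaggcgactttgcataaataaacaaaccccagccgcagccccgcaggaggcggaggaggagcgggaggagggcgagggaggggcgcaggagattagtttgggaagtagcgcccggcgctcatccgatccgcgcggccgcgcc
The forkhead letters occurred once upstream of Col6a1, on the other strand, the GC box once upstream of Col6a2, also on the other strand, and the TATA box once upstream of Col13a1, while the Col6a3 window held none of the 4. Of the 34 listed collagens, 27 had a RefSeq window. The forkhead letters stood in 1 of these 27 and in 3.06% of 27025 promoters of the same length. The TATA box stood in 4 of 27, against 13.0% of all promoters, the GC box in 17 of 27, against 8907 of the 27025 promoters, and the CCAAT box in 9 of 27, against 34.5%. The median GC content was 59.6% for the collagen windows and 52.0% for all promoters. These matches are letters in a window and do not show a bound site.

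The genotype labels were first set beside the targeted genes. The Foxa2 level, on the deposited log2 scale, ran from 12.11 to 12.58 in Double-Het, from 12.42 to 12.99 in Falcor-/- and from 12.35 to 12.47 in Foxa2+/- libraries, against 12.83 to 13.03 in wild type. It fell to 65.8% of wild type in Double-Het (limma adjusted p = 0.000891) and to 67.3% in Foxa2+/- (adjusted p = 0.00245), and stood at 85.2% in Falcor-/- (adjusted p = 0.115). The Falcor transcript, listed as 9030622O22Rik, ran from 11.50 to 11.86 in Double-Het, from 5.39 to 7.27 in Falcor-/- and from 11.46 to 11.96 in Foxa2+/- libraries, against 9.68 to 10.72 in wild type, which is 278%, 6.36% and 286% of the wild-type level. The Falcor level in Double-Het was 97.1% of that in Foxa2+/- (difference -0.04 log2, SE 0.30), so the single Falcor allele of the label was not visible in this level. Epithelial marker genes averaged 13.91 to 14.15 in Double-Het, 13.76 to 14.15 in Falcor-/- and 13.98 to 14.06 in Foxa2+/- libraries, against 13.76 to 13.85 in wild type. The cells thus carried the markers of their label, and every Double-Het and Foxa2+/- library lay above the wild-type range. Of the 10 markers, 3 rose in Double-Het, 2 in Falcor-/- and 2 in Foxa2+/- against wild type, and none fell. Over all genes tested, 7.21%, 5.23% and 1.96% rose. Markers of other cells were present as well: the mean of 24 endothelial markers ran from 9.73 to 12.78 over the 18 libraries, that of 15 fibroblast markers from 7.73 to 10.21, that of 10 macrophage markers from 9.44 to 12.56 and that of 6 mesothelial markers from 7.54 to 12.11. No marker of these lists stood at 1, the lowest deposited value, in any library. In bulk RNA, fewer cells of a type and less RNA per cell cannot be told apart.

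In each mutant genotype more collagen genes fell than rose against wild type, and Col4a1 and Col6a3 were among those that fell in all 3. In Double-Het, 15 of 33 collagens fell and none rose by limma with an adjusted p under 0.05, where 14.8% of all 15249 genes tested changed, 7.57% downward and 7.21% upward. In Falcor-/-, 7 fell and none rose, where 9.47% of all genes changed, 4.24% downward and 5.23% upward. That count of 7 was 1 without wild-type replicate 1, 3 without Falcor-/- replicates 6, 8 or 9 or wild-type replicates 2 or 4, and 4 without wild-type replicate 5, and it reached 10 without Falcor-/- replicate 7. The count over all genes ran from 354 to 3926 in the same fits, around 1444. In Foxa2+/-, 4 fell and Col7a1 rose, where 6.11% of all genes changed, 4.15% downward and 1.96% upward. That count of 5 was 2 without wild-type replicates 1, 4 or 5 and 3 without Foxa2+/- replicates 11, 12 or 13, and it was 8 without Foxa2+/- replicate 14 and 9 without wild-type replicate 3. Beside those counts, 19, 12 and 16 of the 33 collagens had an unadjusted p under 0.05 in Double-Het, Falcor-/- and Foxa2+/-. The shares of all genes above are for adjusted p and cannot be set against these counts. No share of all genes at the unadjusted threshold is given here. The median change of the 33 collagens was -0.85 log2 units in Double-Het, -0.55 in Falcor-/- and -0.45 in Foxa2+/-, whereas the median over all genes tested was 0.07, 0.03 and 0.04. Expressed as a share of the collagens, 45.5% changed in Double-Het, 21.2% in Falcor-/- and 15.2% in Foxa2+/-. These 3 comparisons share the 5 wild-type libraries.

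**Figure D1:**
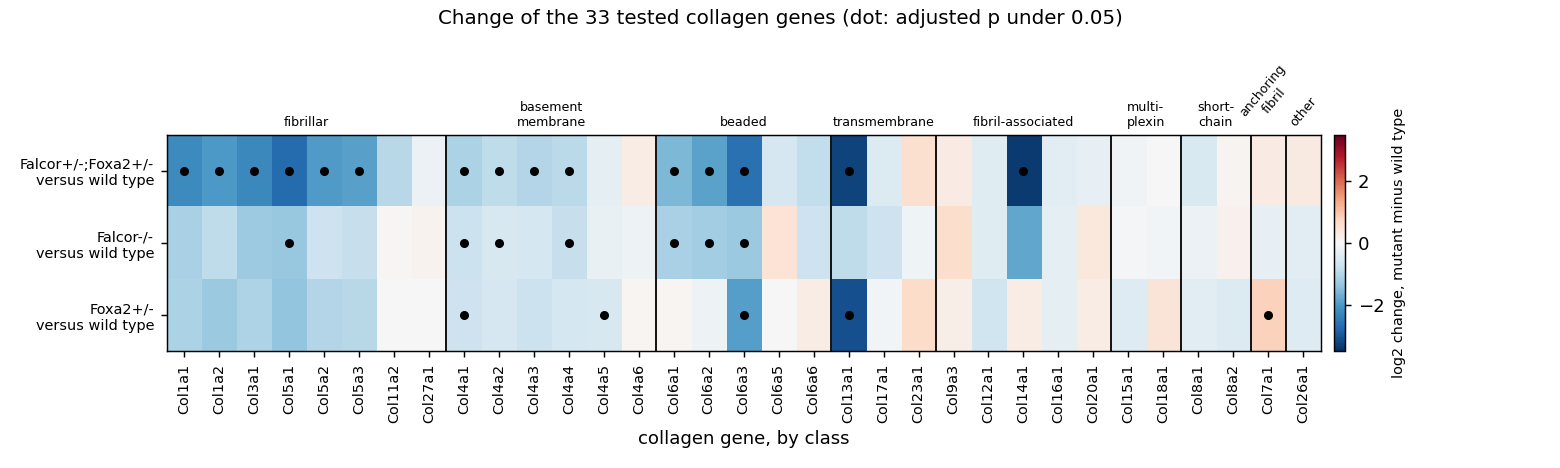
Change of each tested collagen gene (columns, grouped by class) in Double-Het, Falcor-/- and Foxa2+/- (rows) against wild type, as the difference of mean log2 levels, blue for lower and red for higher than wild type, with a dot where the limma adjusted p was under 0.05. Dots fill most of the fibrillar, basement membrane and beaded columns in Double-Het, where 15 of 33 genes fell, and the Foxa2+/- row has the sole dot on a rise, at Col7a1.

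Beside Col4a1 and Col6a3, which fell in all 3 mutant genotypes, 6 genes fell in 2 of them and 8 in 1. By class, Double-Het had lower calls for 6 of 8 fibrillar, 4 of 6 basement membrane, 3 of 5 beaded, 1 of 3 transmembrane and 1 of 5 fibril-associated genes. Falcor-/- had lower calls for 1 fibrillar, 3 basement membrane and 3 beaded genes, and Foxa2+/- for 2 basement membrane, 1 beaded and 1 transmembrane gene and for no fibrillar gene. Class medians in Double-Het, Falcor-/- and Foxa2+/- were -1.99, -0.84 and -1.05 for fibrillar genes, -0.91, -0.58 and -0.60 for basement membrane genes and -1.57, -1.13 and 0.01 for beaded genes. The 2 multiplexin genes, Col15a1 and Col18a1, whose C-terminal pieces include endostatin, and the 2 short-chain genes, Col8a1 and Col8a2, had no call against wild type. Between mutant genotypes, 2 higher and 5 lower collagens were called in Falcor-/- against Foxa2+/- (16.7% of all genes, 8.56% higher and 8.1% lower), 3 lower in Double-Het against Foxa2+/- (2.43% of all genes, 1.37% lower and 1.06% higher) and 2 lower in Double-Het against Falcor-/- (5.15%, 3% lower and 2.15% higher). The count in Falcor-/- against Foxa2+/- was 4 without Foxa2+/- replicate 13. The count in Double-Het against Falcor-/- was 1 without Double-Het replicates 16 or 17 or Falcor-/- replicate 10 and 5 without Falcor-/- replicate 8.

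The chains of type I and type III collagen fell in Double-Het and, with all 18 libraries fitted, passed the test in neither other mutant. Col1a1, the alpha1 chain of type I collagen, had log2 levels of 9.77, 10.42, 9.95 and 10.05 in Double-Het, 11.81, 10.29, 10.68, 11.04 and 11.91 in Falcor-/- and 11.70, 9.41, 9.88 and 13.73 in Foxa2+/- libraries, against 12.03, 12.43, 11.50, 12.45 and 12.96 in wild type, each in replicate order. Every Double-Het library lay below every wild-type library, Falcor-/- replicates 6 and 10 reached into the wild-type range, and Foxa2+/- replicate 14 lay above all others. Col1a1 fell to 21.4% of wild type in Double-Het (change -2.23 log2, SE 0.63, limma adjusted p = 0.0255), whereas the changes of -1.13 in Falcor-/- (adjusted p = 0.189) and -1.09 in Foxa2+/- (adjusted p = 0.374) did not pass. Col1a2, its partner chain, had levels of 10.71, 10.96, 10.42 and 10.42 in Double-Het, 12.06, 11.23, 11.18, 11.71 and 12.59 in Falcor-/- and 11.90, 9.87, 10.06 and 13.51 in Foxa2+/- libraries, against 12.53, 12.71, 11.98, 12.69 and 13.28 in wild type. The order of the libraries was close to that of Col1a1, with Double-Het apart from wild type and Foxa2+/- replicate 14 again highest of the 18. Col1a2 fell to 24.8% of wild type in Double-Het (change -2.01, SE 0.55, adjusted p = 0.0208). Col3a1, the chain of type III collagen, which makes thin fibrils in distensible tissue, had levels of 11.31, 11.48, 11.05 and 11.09 in Double-Het, 12.98, 11.34, 11.70, 12.13 and 12.99 in Falcor-/- and 12.84, 10.76, 10.91 and 15.16 in Foxa2+/- libraries, against 13.32, 13.50, 12.86, 13.57 and 14.21 in wild type. Double-Het stood below all wild-type libraries and Foxa2+/- spanned the whole range. Col3a1 fell to 20.9% in Double-Het (change -2.26, SE 0.65, adjusted p = 0.0278). In Double-Het the Col1a1 call was lost without Double-Het replicate 15 (adjusted p = 0.0705), Double-Het replicate 17 (adjusted p = 0.0507) or wild-type replicate 5 (adjusted p = 0.0581), and the Col1a2 call without wild-type replicate 5 (adjusted p = 0.0506). The Col3a1 call was lost in 5 of 9 such fits, without Double-Het replicates 15, 16 or 17 or wild-type replicates 4 or 5, with adjusted p up to 0.0625.

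All 3 chains of type V collagen, which sits within type I fibrils and sets their width, fell in Double-Het. Col5a1 had log2 levels of 8.28, 7.51, 8.03 and 7.39 in Double-Het, 9.18, 8.68, 8.76, 9.11 and 10.08 in Falcor-/- and 8.9998, 8.37, 8.56 and 10.60 in Foxa2+/- libraries, against 10.56, 10.68, 9.66, 10.48 and 11.13 in wild type. All Double-Het libraries lay below every library of the other 3 genotypes, and Falcor-/- replicate 10 and Foxa2+/- replicate 14 were the sole mutant libraries inside the wild-type range. Col5a1 fell to 15.4% of wild type in Double-Het (change -2.70, SE 0.40, adjusted p = 0.000263) and to 39.6% in Falcor-/- (change -1.34, SE 0.38, adjusted p = 0.0399), and the Foxa2+/- change of -1.37 had an adjusted p of 0.0545. The Falcor-/- call of Col5a1 was lost with library weights (adjusted p = 0.0631) and in 7 of 10 fits that left out 1 library (adjusted p up to 0.0898), and was kept without Falcor-/- replicates 7 or 10 or wild-type replicate 3. Col5a2 had levels of 9.89, 9.45, 9.67 and 9.61 in Double-Het, 10.60, 11.07, 10.24, 11.02 and 11.65 in Falcor-/- and 10.37, 10.15, 10.27 and 11.62 in Foxa2+/- libraries, against 11.87, 11.87, 10.69, 11.81 and 11.92 in wild type. Here too all Double-Het libraries lay below all others, while Falcor-/- and Foxa2+/- overlapped wild type through its low replicate 3, without which Falcor-/- passed as well (-0.95, adjusted p = 0.0428). Col5a2 fell to 25.4% of wild type in Double-Het (change -1.98, SE 0.32, adjusted p = 0.000506) and was also lower in Double-Het than in Falcor-/- (change -1.26, SE 0.32, adjusted p = 0.0286). That difference from Falcor-/- was lost in 5 of 9 fits, without Double-Het replicates 16, 17 or 18 or Falcor-/- replicates 9 or 10 (adjusted p up to 0.0851). Col5a3 had levels of 6.47, 6.43, 6.28 and 4.80 in Double-Het, 7.41, 6.92, 6.75, 7.06 and 7.29 in Falcor-/- and 7.51, 5.40, 6.13 and 8.67 in Foxa2+/- libraries, against 7.32, 7.83, 7.53, 8.37 and 8.37 in wild type. Double-Het did not overlap wild type but overlapped Foxa2+/-, and its replicate 18, at 4.80, stood apart below the rest. Col5a3 fell by 1.89 in Double-Het (SE 0.51, adjusted p = 0.0204), and by 1.49 without replicate 18 (adjusted p = 0.0600). The other fibrillar genes tested had no call: Col11a2, a chain of cartilage fibrils, averaged 8.66 in Double-Het against 9.63 in wild type (adjusted p = 0.0562), and Col27a1 averaged 11.40 against 11.59 (adjusted p = 0.556).

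**Figure D2:**
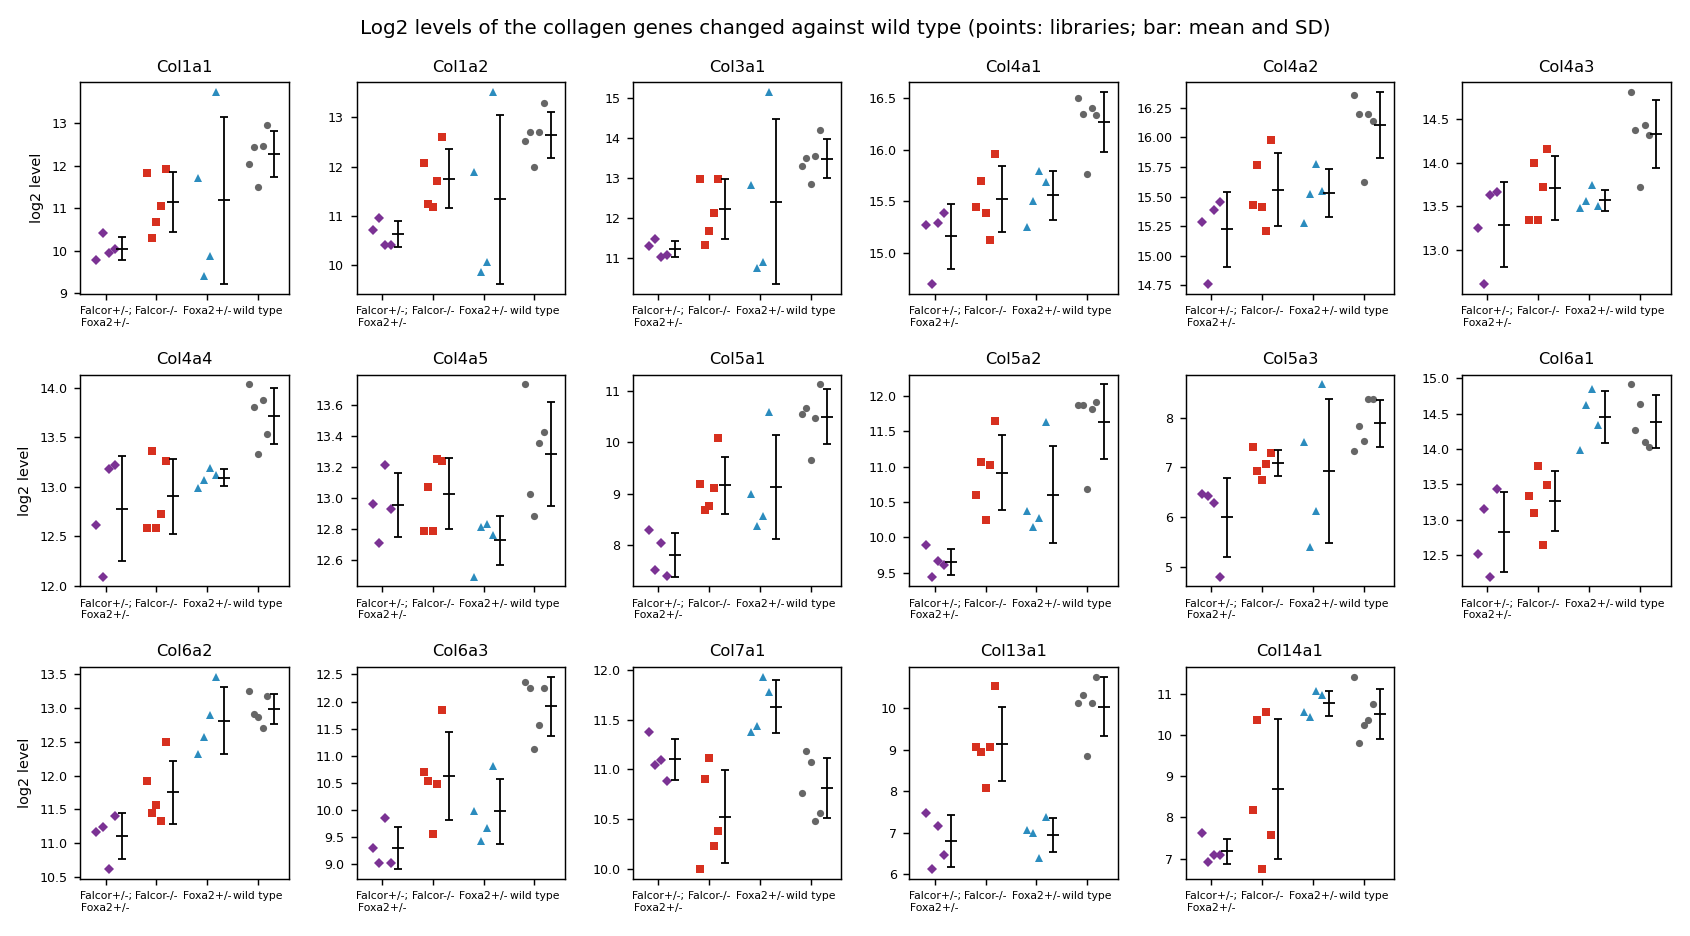
Log2 levels of the 17 collagen genes called in at least 1 comparison with wild type, 1 panel per gene with its own axis, with a point for each library of Double-Het, Falcor-/-, Foxa2+/- and wild type and a bar for mean and SD. Double-Het fell against wild type in 15 panels, and Foxa2+/- replicate 14 is the high triangle in the panels of Col1a1 (13.73), Col1a2 (13.51) and Col3a1 (15.16).

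The fibrillar genes spread widely in Foxa2+/-, where replicate 14 was highest and replicate 11 also stood above replicates 12 and 13. Replicate 14 had the highest mesothelial marker mean of the 18 libraries, at 12.11, against 10.42, 7.54 and 8.40 in Foxa2+/- replicates 11, 12 and 13 and 8.12 to 10.78 in wild type. Within Foxa2+/-, Col1a1, Col1a2 and Col3a1 were ordered as that mean was, highest in replicate 14, then 11, 13 and 12. Replicates 14 and 11 also led in the fibroblast mean (8.90 and 8.41, against 8.17 and 8.12 in replicates 12 and 13). The same held for the basal cell mean (9.94 and 9.84, against 8.03 and 7.88). It did not hold for the endothelial mean, lowest in replicate 14 (10.26), or the smooth muscle and pericyte mean, lowest in replicate 11 (7.18). Without replicate 14, Col1a1 (change -1.95, adjusted p = 0.0212), Col1a2 (-2.03, adjusted p = 0.00766), Col3a1 (-1.99, adjusted p = 0.0153), Col5a1 (-1.86, adjusted p = 0.00432) and Col5a2 (-1.37, adjusted p = 0.00944) passed in Foxa2+/- against wild type. Without wild-type replicate 3, Col5a1 (-1.58, adjusted p = 0.0241) and Col5a2 (-1.26, adjusted p = 0.0123) passed there as well. The mean of the fibroblast markers ran from 7.73 to 8.27 in Double-Het, from 8.75 to 10.03 in Falcor-/- and from 8.12 to 8.90 in Foxa2+/- libraries, against 9.09 to 10.21 in wild type, and 7, 2 and 6 of its 13 tested genes fell in the 3 mutant genotypes, while Scara5 rose in Double-Het (1.25, adjusted p = 0.00328) and Foxa2+/- (1.24, adjusted p = 0.00594). Smooth muscle and pericyte markers averaged 6.99 to 7.48 in Double-Het, 7.73 to 8.56 in Falcor-/- and 7.18 to 7.67 in Foxa2+/-, against 7.86 to 8.88 in wild type, with 6, none and 5 of 9 genes lower. For both lists, the shares over all genes tested were 7.57%, 4.24% and 4.15% lower and 7.21%, 5.23% and 1.96% higher. The part of these cell types in the fall of the fibrillar genes was not tested.

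Of the 6 basement membrane genes, 4 fell in Double-Het, 3 in Falcor-/- and 2 in Foxa2+/-. Col4a1 and Col4a2, which together form the trimer of nearly all basement membranes, are transcribed in opposite directions from adjoining starts. Col4a1 had log2 levels of 15.27, 14.70, 15.29 and 15.39 in Double-Het, 15.45, 15.70, 15.39, 15.12 and 15.95 in Falcor-/- and 15.25, 15.50, 15.79 and 15.68 in Foxa2+/- libraries, against 16.50, 16.35, 15.76, 16.40 and 16.33 in wild type. Wild-type replicate 3 stood apart at 15.76, and only it was reached by Falcor-/- replicate 10 and Foxa2+/- replicate 13. Col4a1 fell to 46.4% of wild type in Double-Het (change -1.11, SE 0.18, adjusted p = 0.000623), to 59.6% in Falcor-/- (-0.75, SE 0.17, adjusted p = 0.0203) and by 0.71 log2 units in Foxa2+/- ( SE 0.18, adjusted p = 0.0271). Col4a2 had levels of 15.29, 14.76, 15.38 and 15.45 in Double-Het, 15.43, 15.76, 15.41, 15.20 and 15.98 in Falcor-/- and 15.27, 15.52, 15.77 and 15.55 in Foxa2+/- libraries, against 16.36, 16.20, 15.63, 16.20 and 16.14 in wild type. Double-Het lay below all wild-type libraries, and the other mutants overlapped wild type at its replicate 3. Col4a2 fell by 0.88 in Double-Het (SE 0.18, adjusted p = 0.00299) and by 0.55 in Falcor-/- (SE 0.17, adjusted p = 0.0484), and its change in Foxa2+/- was -0.58 (adjusted p = 0.0652). Outside Double-Het these calls depended on single libraries. The Falcor-/- call was lost for Col4a1 without Falcor-/- replicate 9 (adjusted p = 0.0513) or wild-type replicate 1 (adjusted p = 0.0572), and for Col4a2 in 7 of 10 fits (adjusted p up to 0.121), being kept without Falcor-/- replicates 7 or 10 or wild-type replicate 3. That Col4a2 call was also lost without the intensity trend (adjusted p = 0.0563) and with only the 2 genotypes fitted (adjusted p = 0.0770). The Foxa2+/- call of Col4a1 was lost in 6 of 9 fits (adjusted p up to 0.0845) and kept without Foxa2+/- replicates 13 or 14 or wild-type replicate 3, and Col4a2 passed in Foxa2+/- without wild-type replicate 3 (-0.70, adjusted p = 0.0161).

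Col4a3, Col4a4 and Col4a5 encode the chains of a second type IV network, found in the lung under alveolar epithelium. Col4a3 had log2 levels of 13.26, 12.61, 13.63 and 13.66 in Double-Het, 13.35, 14.00, 13.34, 13.72 and 14.15 in Falcor-/- and 13.48, 13.56, 13.74 and 13.50 in Foxa2+/- libraries, against 14.81, 14.37, 13.72, 14.43 and 14.31 in wild type. Col4a4 had levels of 12.62, 12.10, 13.18 and 13.22 in Double-Het, 12.59, 13.36, 12.59, 12.72 and 13.26 in Falcor-/- and 12.98, 13.07, 13.19 and 13.12 in Foxa2+/- libraries, against 14.03, 13.80, 13.33, 13.88 and 13.54 in wild type. For both genes Double-Het lay below all wild-type libraries, with its replicate 16 lowest. Col4a3 fell to 48.7% of wild type in Double-Het (change -1.04, SE 0.23, adjusted p = 0.00564), with changes of -0.62 in Falcor-/- (adjusted p = 0.0681) and -0.76 in Foxa2+/- (adjusted p = 0.0590). Col4a4 fell to 52.2% in Double-Het (-0.94, SE 0.22, adjusted p = 0.00806) and to 56.9% in Falcor-/- (-0.81, SE 0.20, adjusted p = 0.0275), with -0.63 in Foxa2+/- (adjusted p = 0.106). The Falcor-/- call of Col4a4 was lost in 6 of 10 fits, without Falcor-/- replicates 6, 8 or 9 or wild-type replicates 1, 2 or 4 (adjusted p up to 0.0769), and Col4a3 passed in Foxa2+/- (-0.91, adjusted p = 0.0151) and in Falcor-/- (-0.77, adjusted p = 0.0321) without wild-type replicate 3. Col4a5, on the X chromosome, had levels of 12.96, 12.71, 13.21 and 12.93 in Double-Het, 12.79, 13.07, 12.79, 13.25 and 13.24 in Falcor-/- and 12.49, 12.81, 12.83 and 12.76 in Foxa2+/- libraries, against 13.73, 13.03, 12.88, 13.36 and 13.42 in wild type. Foxa2+/- alone did not overlap wild type, and Col4a5 fell by 0.56 there (SE 0.16, adjusted p = 0.0408), a call lost in 7 of 9 fits without 1 library (adjusted p up to 0.116) and kept without wild-type replicates 2 or 3. It was also lost without the intensity trend (adjusted p = 0.0530) and with only the 2 genotypes fitted (adjusted p = 0.0664). Col4a6, which joins Col4a5 in other basement membranes, such as those of smooth muscle, averaged 11.43 ± 0.41 in Double-Het, 10.98 ± 0.42 in Falcor-/- and 11.23 ± 0.32 in Foxa2+/-, against 11.16 ± 0.20 in wild type (SD, n = 4, 5, 4 and 5), with no call.

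The balance of paired chains was also compared within each library. The Col4a1 level minus the Col4a2 level ran from -0.10 to -0.02 in Double-Het, from -0.08 to 0.02 in Falcor-/- and from -0.03 to 0.14 in Foxa2+/- libraries, against 0.14 to 0.20 in wild type. Mutant and wild-type libraries did not overlap, the nearest being Foxa2+/- replicate 14 at 0.136 and wild-type replicate 3 at 0.138. The mean was -0.06 ± 0.03, -0.03 ± 0.04 and 0.03 ± 0.08 in Double-Het, Falcor-/- and Foxa2+/-, against 0.16 ± 0.03 in wild type, so that Col4a1 was lower relative to Col4a2 in all 3 mutants. The genes overlap at their 5′ ends on opposite strands, and strand use in counting is not given in the sources used here, so some reads could have been credited to either gene. Col4a3 minus Col4a4 averaged 0.51 in Double-Het, 0.81 in Falcor-/- and 0.48 in Foxa2+/-, against 0.61 in wild type. For that pair each mutant overlapped wild type (0.39 to 0.78), but Falcor-/- (0.640 to 0.992) lay above both Double-Het (0.446 to 0.637) and Foxa2+/- (0.384 to 0.556). Col1a1 minus Col1a2 averaged -0.58 in Double-Het, -0.61 in Falcor-/- and -0.16 in Foxa2+/-, against -0.36 in wild type, and each mutant overlapped wild type. These differences carry no test.

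**Figure D3:**
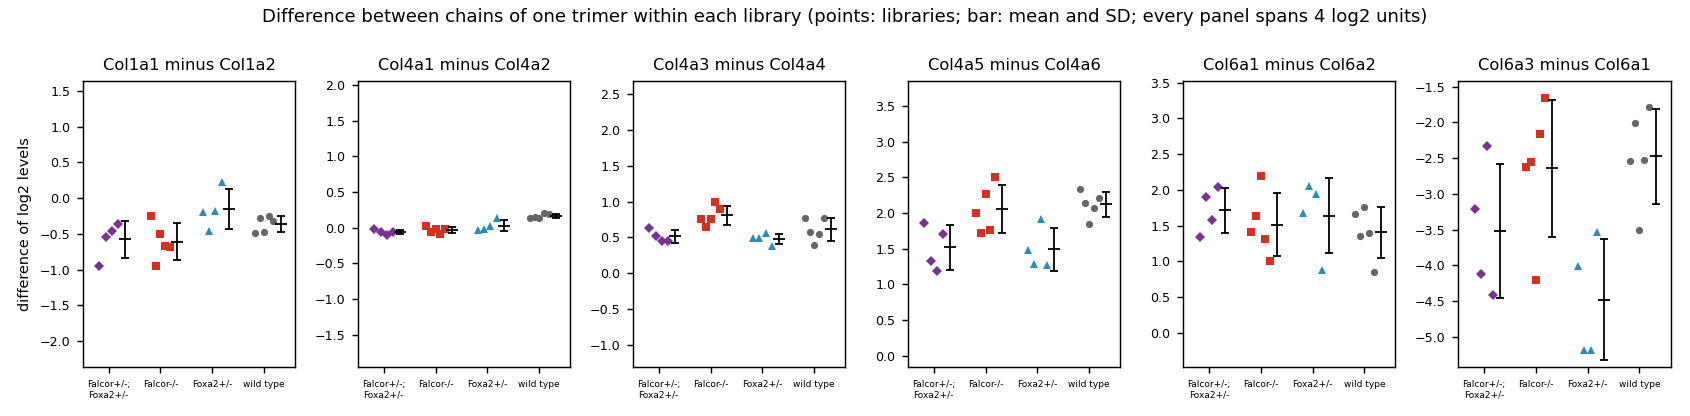
Difference between the log2 levels of 2 chains within each library, for 6 pairs, with a point per library of Double-Het, Falcor-/-, Foxa2+/- and wild type, a bar for mean and SD, and the same span on every axis. For Col4a1 minus Col4a2 the points are tight and all wild-type libraries (0.14 to 0.20) lie above all mutant libraries, while Col6a3 minus Col6a1 is lowest in Foxa2+/- (mean -4.48).

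Endothelial and alveolar type 1 markers were set beside the basement membrane genes. The endothelial mean ran from 9.73 to 10.37 in Double-Het, from 10.84 to 12.62 in Falcor-/- and from 10.26 to 10.68 in Foxa2+/- libraries, against 11.45 to 12.78 in wild type, and 21, 1 and 20 of its 24 genes fell. The alveolar type 1 mean ran from 13.73 to 14.02 in Double-Het, from 13.92 to 14.75 in Falcor-/- and from 13.63 to 13.82 in Foxa2+/- libraries, against 13.81 to 14.73 in wild type, and 7, none and 7 of its 11 genes fell. Beside these counts, 7.57%, 4.24% and 4.15% of all genes tested fell. The single endothelial fall in Falcor-/- is a share near that of all genes. Wild-type replicate 3, lowest of its genotype for Col4a1, Col4a2, Col4a3, Col4a4 and Col4a5, was also the lowest wild-type library for the endothelial (11.45) and the alveolar type 1 mean (13.81). In Falcor-/-, Col4a1 in replicates 6, 7, 8, 9 and 10 stood at 15.45, 15.70, 15.39, 15.12 and 15.95. In the same libraries the alveolar type 1 means were 13.92, 14.18, 14.09, 14.48 and 14.75. The endothelial means there were 11.64, 11.17, 10.84, 11.50 and 12.62. The part of either cell type in the result was not tested.

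Col6a1 and Col6a2 fell in Double-Het and Falcor-/- and did not separate from wild type in Foxa2+/-, whereas Col6a3 fell in all 3. The usual type VI trimer holds 1 chain each of Col6a1, Col6a2 and Col6a3. Col6a1 had log2 levels of 12.51, 13.15, 12.19 and 13.44 in Double-Het, 13.33, 13.09, 13.76, 12.65 and 13.49 in Falcor-/- and 13.99, 14.63, 14.85 and 14.34 in Foxa2+/- libraries, against 14.91, 14.27, 14.63, 14.10 and 14.03 in wild type. All Double-Het and Falcor-/- libraries lay below all Foxa2+/- and wild-type libraries. Col6a1 fell to 33.8% of wild type in Double-Het (change -1.57, SE 0.27, adjusted p = 0.000836) and to 45.8% in Falcor-/- (-1.13, SE 0.25, adjusted p = 0.0179), whereas in Foxa2+/- the difference was 0.06 with a 95% interval of -0.50 to 0.63 (adjusted p = 0.942). Col6a2, the neighbouring gene on chromosome 10, had levels of 11.17, 11.25, 10.62 and 11.40 in Double-Het, 11.92, 11.45, 11.57, 11.33 and 12.49 in Falcor-/- and 12.31, 12.57, 12.90 and 13.46 in Foxa2+/- libraries, against 13.25, 12.92, 12.87, 12.70 and 13.17 in wild type. Double-Het and Falcor-/- again lay below all wild-type libraries, with Falcor-/- replicate 10 the sole one to reach the Foxa2+/- range. Col6a2 fell to 27.3% of wild type in Double-Het (-1.87, SE 0.24, adjusted p = 9.51e-05) and to 42.6% in Falcor-/- (-1.23, SE 0.23, adjusted p = 0.0082), and its difference in Foxa2+/- was -0.17 with an interval of -0.68 to 0.34 (adjusted p = 0.786). The mutants differed when set against each other. Against Foxa2+/-, Col6a1 was lower in Double-Het (-1.63, SE 0.28, adjusted p = 0.00627) and in Falcor-/- (-1.19, SE 0.27, adjusted p = 0.0112), and so was Col6a2 (-1.70, SE 0.25, adjusted p = 0.00251, and -1.06, SE 0.24, adjusted p = 0.0119). Among fits that left out 1 library, the Falcor-/- call of Col6a1 against wild type was lost without wild-type replicate 1 (-0.99, adjusted p = 0.0538) and the other 7 calls of these 2 genes were kept.

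Col6a3 encodes the longest chain of the trimer and followed another pattern. Its log2 levels were 9.30, 9.03, 9.86 and 9.02 in Double-Het, 10.71, 10.53, 9.55, 10.48 and 11.84 in Falcor-/- and 9.99, 9.43, 9.66 and 10.81 in Foxa2+/- libraries, against 12.37, 12.26, 11.12, 11.57 and 12.24 in wild type. Foxa2+/- and Double-Het lay wholly below wild type, and of Falcor-/- only replicate 10 reached into it. Col6a3 fell to 16.4% of wild type in Double-Het (change -2.61, SE 0.38, adjusted p = 0.000216), to 40.9% in Falcor-/- (-1.29, SE 0.36, adjusted p = 0.0370) and to 26.1% in Foxa2+/- (-1.94, SE 0.38, adjusted p = 0.00431). The Falcor-/- call was lost in 7 of 10 fits without 1 library (adjusted p up to 0.0974) and with only the 2 genotypes fitted (adjusted p = 0.0722), and kept without Falcor-/- replicates 7 or 10 or wild-type replicate 3. Double-Het and Falcor-/- differed by -1.32 (adjusted p = 0.0537), which passed without Falcor-/- replicate 8 (-1.59, adjusted p = 0.0139). Within libraries, the Col6a3 level minus the Col6a1 level averaged -3.52 ± 0.94 in Double-Het, -2.64 ± 0.96 in Falcor-/- and -4.48 ± 0.84 in Foxa2+/-, against -2.48 ± 0.66 in wild type, a pair set side by side after the values had been seen. Foxa2+/- (-5.19 to -3.54) lay below wild type (-3.51 to -1.79) in this difference, and the other mutants overlapped wild type. The chains that can stand in for Col6a3 were not called: Col6a5 averaged 10.13 ± 0.32 in Double-Het, 11.19 ± 0.06 in Falcor-/- and 10.73 ± 0.94 in Foxa2+/-, against 10.72 ± 0.54 in wild type, and Col6a6 averaged 5.69, 5.81 and 6.79, against 6.54, with Foxa2+/- replicate 14 at 9.93.

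**Figure D4:**
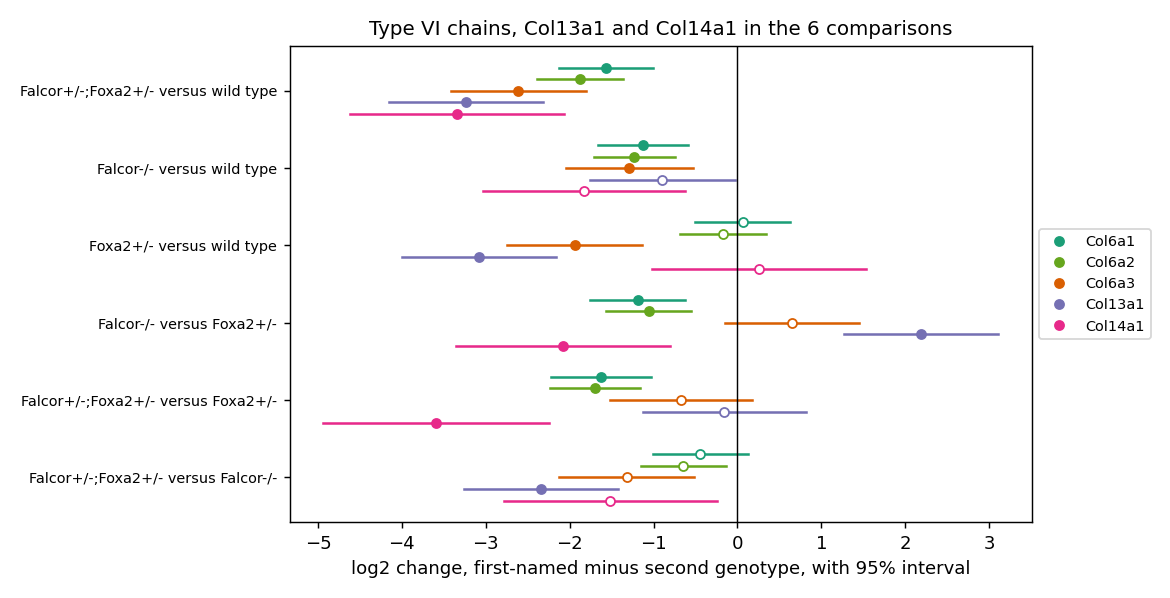
Change of Col6a1, Col6a2, Col6a3, Col13a1 and Col14a1 in the 6 comparisons between genotypes, as log2 differences (first-named minus second genotype) with 95% intervals, filled where the limma adjusted p was under 0.05. In Foxa2+/- against wild type Col6a1 (0.06) and Col6a2 (-0.17) lie near 0 beside Col6a3 (-1.94) and Col13a1 (-3.08).

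Markers of other cells were set beside the type VI chains. Fibroblast marker means, given above by genotype, were below the wild-type range in every Double-Het and Foxa2+/- library. Macrophage markers averaged 9.74 to 11.02 in Double-Het, 9.44 to 12.23 in Falcor-/- and 11.98 to 12.52 in Foxa2+/- libraries, against 12.00 to 12.56 in wild type, and 7, 6 and none of 10 fell. The shares of all genes that fell were 7.57%, 4.24% and 4.15%. Within Falcor-/-, replicates 7 and 9 had the highest macrophage means (11.81 and 12.23) and the lowest Col6a1 and Col6a2 levels. The part of either cell type in the levels of the type VI chains was not tested. The 10 tested genes nearest to the Col6a1 and Col6a2 pair, 5 on each side, were chosen after the values had been seen. None of them changed in Falcor-/- against wild type, where 9.47% of all genes did. In Double-Het against wild type, where 14.8% of all genes changed, Pcbp3 (-0.85, adjusted p = 0.007) and Adarb1 (-1.02, adjusted p = 0.035) fell. Both also fell in Foxa2+/- (-0.95 and -1.35), where 2610028H24Rik rose by 0.50 and 6.11% of all genes changed. In Falcor-/- against Foxa2+/-, where 16.7% of all genes changed, Pcnt (-0.62) and 2610028H24Rik (-0.42) were lower and Pcbp3 (0.60) was higher. Col18a1, the multiplexin gene within this stretch, averaged 10.90 in Double-Het, 10.79 in Falcor-/- and 11.33 in Foxa2+/-, against 10.87 in wild type, with no call. The forkhead letters printed above for Col6a1 were absent from the Col6a2 and Col6a3 windows, and nothing about binding follows from letters alone.

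Col13a1, a transmembrane collagen that is used as a marker of alveolar fibroblasts in mouse lung, had the steepest fall in Foxa2+/- among the collagens tested. Its log2 levels were 7.47, 6.12, 7.16 and 6.45 in Double-Het, 9.06, 8.95, 8.07, 9.07 and 10.54 in Falcor-/- and 7.06, 6.99, 6.39 and 7.37 in Foxa2+/- libraries, against 10.12, 10.33, 8.84, 10.12 and 10.75 in wild type. Double-Het and Foxa2+/- lay below every Falcor-/- and wild-type library, and Falcor-/- overlapped wild type. Col13a1 fell to 10.6% of wild type in Double-Het (change -3.24, SE 0.43, adjusted p = 0.000118) and to 11.8% in Foxa2+/- (-3.08, SE 0.43, adjusted p = 0.000667), and its change in Falcor-/- was -0.89 (adjusted p = 0.137), which passed without Falcor-/- replicate 10 (-1.24, adjusted p = 0.0483). It was higher in Falcor-/- than in Foxa2+/- (2.19, SE 0.43, adjusted p = 0.00649) and lower in Double-Het than in Falcor-/- (-2.34, SE 0.43, adjusted p = 0.00546), and each of these 4 calls was kept in every fit that left out 1 library. Double-Het and Foxa2+/- differed by -0.15 with a 95% interval of -1.12 to 0.81 (adjusted p = 0.886). Endothelial markers moved with it between genotypes. Their means in the same library order were 9.94, 9.73, 9.99 and 10.37 in Double-Het, 11.64, 11.17, 10.84, 11.50 and 12.62 in Falcor-/- and 10.34, 10.68, 10.42 and 10.26 in Foxa2+/-, against 12.30, 12.52, 11.45, 12.58 and 12.78 in wild type. Wild-type replicate 3 was lowest and Falcor-/- replicate 10 highest of their genotypes for both. Foxa2+/- replicate 14, highest of its genotype for Col13a1 (7.37), was lowest for the endothelial mean (10.26). Double-Het replicate 18, highest of its genotype for the endothelial mean (10.37), stood at 6.45 for Col13a1, in a range of 6.12 to 7.47. Fibroblast markers also moved with Col13a1 between genotypes. The part of either cell type in the Col13a1 levels was not tested.

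Col14a1, a fibril-associated collagen that marks another matrix fibroblast population of mouse lung, split the Falcor-/- libraries. Its log2 levels were 7.63, 6.92, 7.08 and 7.08 in Double-Het, 8.19, 10.37, 6.75, 10.56 and 7.58 in Falcor-/- and 10.57, 10.44, 11.08 and 10.98 in Foxa2+/- libraries, against 11.41, 9.82, 10.24, 10.36 and 10.75 in wild type. Double-Het lay below all Foxa2+/- and wild-type libraries, Foxa2+/- overlapped wild type, and Falcor-/- had replicates 7 and 9 within the wild-type range and replicates 6, 8 and 10 below it. Col14a1 fell to 9.88% of wild type in Double-Het (change -3.34, SE 0.60, adjusted p = 0.00133), and its change in Falcor-/- was -1.83 (SE 0.57, adjusted p = 0.0513). It was lower than in Foxa2+/- both in Double-Het (-3.59, SE 0.64, adjusted p = 0.00693) and in Falcor-/- (-2.08, SE 0.60, adjusted p = 0.0300). The Falcor-/- change against wild type passed without Falcor-/- replicate 7 (-2.25, adjusted p = 0.0122) or 9 (-2.29, adjusted p = 0.0241), and the call against Foxa2+/- was lost without Falcor-/- replicates 6, 8 or 10 or Foxa2+/- replicates 12, 13 or 14 (adjusted p up to 0.0917), and with only the 2 genotypes fitted (adjusted p = 0.0882). Double-Het and Falcor-/- differed by -1.51 (adjusted p = 0.155), which passed without Falcor-/- replicate 8 (adjusted p = 0.0338). The macrophage mean divided the same libraries: in Falcor-/- it was 11.81 and 12.23 in replicates 7 and 9 and 10.77, 9.44 and 10.46 in replicates 6, 8 and 10. C1qc, a complement chain made by macrophages, stood at 12.56 and 13.29 in the first pair and at 7.94, 8.45 and 8.73 in the others, against 8.70 to 9.45 in Double-Het, 12.90 to 13.69 in Foxa2+/- and 12.79 to 13.53 in wild type. The part of macrophage RNA in the Col14a1 levels was not tested. Fibroblast marker means did not divide Falcor-/- in this way, at 9.15, 8.85 and 10.03 in replicates 6, 8 and 10 and 8.75 and 9.35 in replicates 7 and 9. The other fibril-associated genes tested, Col9a3, Col12a1, Col16a1 and Col20a1, had no call.

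**Figure D5:**
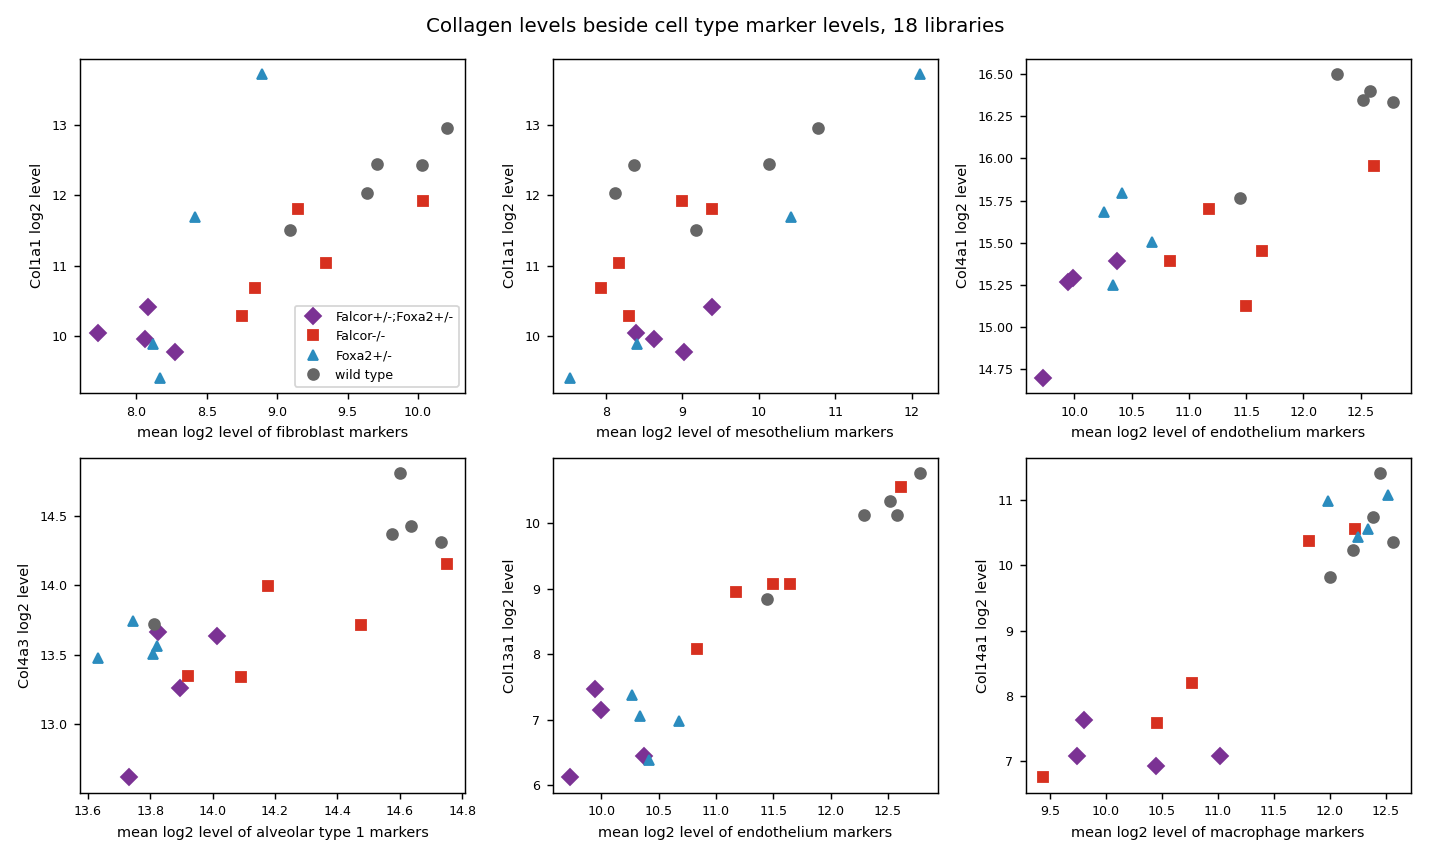
Log2 level of a collagen gene (vertical axis) against the mean log2 level of a marker list (horizontal axis) in 18 libraries, for 6 pairs of gene and list, with a symbol per genotype. The Foxa2+/- library at a mesothelial mean of 12.11 has the highest Col1a1 level (13.73), and the Falcor-/- squares split for Col14a1 into replicates 7 and 9 at macrophage means of 11.81 and 12.23 and 3 libraries at 9.44 to 10.77.

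Col7a1 was the sole collagen that rose against wild type. It encodes the anchoring fibrils that fasten epithelial basement membranes to the tissue below. Its log2 levels were 11.38, 11.05, 11.09 and 10.89 in Double-Het, 10.00, 10.91, 11.12, 10.23 and 10.38 in Falcor-/- and 11.38, 11.43, 11.93 and 11.78 in Foxa2+/- libraries, against 10.77, 11.18, 11.07, 10.49 and 10.57 in wild type. Foxa2+/- lay above all wild-type and Falcor-/- libraries. Col7a1 was 1.76-fold higher in Foxa2+/- than in wild type (change 0.81, SE 0.21, adjusted p = 0.0274), and lower in Falcor-/- than in Foxa2+/- (-1.10, SE 0.21, adjusted p = 0.00577). The rise was lost in 5 of 9 fits, without Foxa2+/- replicates 13 or 14 or wild-type replicates 1, 4 or 5 (adjusted p up to 0.105), whereas the difference between the mutants was kept in all fits. Col17a1, the transmembrane collagen of hemidesmosomes in basal epithelial cells, averaged 8.79 ± 0.95 in Double-Het, 8.54 ± 0.57 in Falcor-/- and 9.17 ± 1.13 in Foxa2+/-, against 9.26 ± 0.38 in wild type, with no call. In Foxa2+/- it stood at 10.05 and 10.20 in replicates 11 and 14 and at 7.98 and 8.43 in replicates 12 and 13, and the mean of basal cell markers was 9.84 and 9.94 against 8.03 and 7.88 in the same libraries. Col23a1, another transmembrane collagen, averaged 13.35 ± 0.40 in Double-Het, 12.64 ± 0.43 in Falcor-/- and 13.42 ± 0.26 in Foxa2+/-, against 12.79 ± 0.21 in wild type. It was lower in Falcor-/- than in Foxa2+/- (-0.79, adjusted p = 0.0213), and Col8a2, a short-chain collagen, was higher there (0.64, adjusted p = 0.0170). The remaining 14 of 33 members had no call in any of the 6 comparisons. Col28a1, with a mean of 5.95, fell just under the filter, and Col6a6, with 6.20, passed just above it. Col2a1, Col6a4, Col9a1, Col9a2, Col10a1, Col11a1, Col19a1, Col22a1, Col24a1 and Col25a1 were not analysed here.

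Genes that make, trim, cross-link or bind collagen, or act in its breakdown, were described beside the chains. For the list counts here and below, the shares over all genes tested were as follows. In Double-Het 7.57% fell and 7.21% rose, in Falcor-/- 4.24% and 5.23%, and in Foxa2+/- 4.15% and 1.96%. Of 18 tested genes for procollagen modification and folding, 5 fell and 1 rose in Double-Het, none changed in Falcor-/- and 4 fell in Foxa2+/-. The list medians were -0.17, -0.05 and -0.14, against 0.07, 0.03 and 0.04 over all genes tested. Serpinh1, the chaperone of the procollagen helix, fell by 0.56 in Double-Het (adjusted p = 0.0306) and by 0.63 in Foxa2+/- (adjusted p = 0.0294), and Plod2, which hydroxylates lysines of the chain ends, fell by 1.11 (adjusted p = 0.000853) and by 0.96 (adjusted p = 0.00465). Of 12 genes for propeptide removal and cross-linking, 6 fell and 1 rose in Double-Het, 2 fell and 1 rose in Falcor-/-, and 2 fell and 1 rose in Foxa2+/-. Lox, the lysyl oxidase that starts cross-linking, fell by 2.14 in Double-Het (adjusted p = 0.000891), by 1.64 in Falcor-/- (adjusted p = 0.0139) and by 1.30 in Foxa2+/- (adjusted p = 0.0444). Those that rose were Bmp1, the protease that cuts off C-propeptides, in Falcor-/- (0.78, adjusted p = 0.0376) and Adamts3, which cuts off N-propeptides, in Double-Het (0.91, adjusted p = 0.0196) and Foxa2+/- (0.92, adjusted p = 0.0332).

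Of 11 fibril-binding proteoglycans and organisers, 7 fell in Double-Het, 3 in Falcor-/- and 6 in Foxa2+/-, with medians of -2.11, -0.90 and -1.09 and no rise. Postn, periostin, fell by 3.31 in Double-Het (adjusted p = 8.53e-05), and fell by 2.74 in Foxa2+/- (adjusted p = 0.000874), with a change of -0.47 in Falcor-/- (adjusted p = 0.411). Of 17 other basement membrane genes, 10 fell in Double-Het, 3 in Falcor-/- and 4 in Foxa2+/-, and Lama2, a laminin chain of muscle and mesenchymal basement membranes, changed by -3.16 (adjusted p = 3.37e-05), -1.51 (adjusted p = 0.0119) and -2.13 (adjusted p = 0.000761) in the 3 genotypes. Of 8 collagen receptors, 4 fell in Double-Het, 2 in Falcor-/- and 3 in Foxa2+/-. Ddr2, the collagen-activated kinase of mesenchymal cells, fell by 2.51 in Double-Het (adjusted p = 0.00029) and by 1.62 in Foxa2+/- (adjusted p = 0.016), while Ddr1, its epithelial counterpart, averaged 13.59 in Double-Het, 13.54 in Falcor-/- and 13.23 in Foxa2+/-, against 13.36 in wild type, with no call. Of 12 tested genes on a list for collagen breakdown, 3 fell in Double-Het, 3 in Falcor-/- and 1 in Foxa2+/-, with none higher. The list holds proteases and also Timp genes, which encode protease inhibitors, so a fall in it need not be that of an enzyme. Over all genes tested, 7.57%, 4.24% and 4.15% fell, and the list medians were -0.35, -0.34 and 0.14. The single fall in Foxa2+/- is a share near that of all genes. Mmp13, a collagenase, fell by 4.68 in Double-Het (adjusted p = 0.00173), and fell by 3.81 in Falcor-/- (adjusted p = 0.0154), and its change in Foxa2+/- was 0.91 (adjusted p = 0.652).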

How the data were processed

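RNA of lung EpCAM+ cells was sequenced in 18 libraries of 4 genotypes. Per the submitters' processing notes, STAR, limma and the mm9 genome were used. For the counter, annotation, filters, strand use and program versions nothing is given in the sources used here. The deposited values are log2 levels from 1 to 18.73, and libraries differed by at most 0.0512 at the same rank in the top 90% of ranks, which is the form of values after quantile normalization over all libraries. Read depth is therefore unknown, no counting interval is given, and changes are relative to the other genes of a library.

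Symbols came from GENCODE vM21 by Ensembl identifier (14994 of 15544 matched). Genes with a mean under 6 were left out (295), and 15249 were fitted with limma 3.58.1 in R 4.3.3, with 1 mean per genotype over all 18 libraries, empirical Bayes with an intensity trend, and Benjamini-Hochberg adjustment over all genes tested in each of 6 comparisons. A gene was called below an adjusted p of 0.05. The fit was tested on simulated data with known changes, in genes drawn at random from those tested. The simulated noise was normal, with 1 spread per gene shared by all genotypes. Its rates do not carry over to genes of wide or unequal spread, such as Col1a1 (SD 1.97 in Foxa2+/- and 0.27 in Double-Het). In the simulated data the fit recovered 40 to 52% of changes of 0.5 log2 units and 70 to 90% of changes of 1. For changes of 2 and 3 it recovered 90 to 98% and 94 to 100%, so small changes can go without a call. Exact permutation tests of single genes cannot go below 0.00794 (5 against 5 or 4 libraries) or 0.0286 (4 against 4). Values in every library are given for members called against wild type, other members by class or mean. Alternatives were other filters, no trend, robust moderation, library weights, fits of 2 genotypes and leaving out each library of the compared genotypes. The members and gene lists were chosen with earlier results of these data known. Overlapping genes and chains with similar sequence can share reads. Promoter sequences are from RefSeq.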

Additional observations from a re-analysis of the deposited data

Results flagged for a closer look

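In 4 of the 68 groups of libraries examined for the 17 named genes, 1 library stood far from the others of its genotype, and chance flags about 1 in 20 groups. These were Col4a1 in wild-type replicate 3 (15.76), Col5a2 in wild-type replicate 3 (10.69), Col5a2 in Foxa2+/- replicate 14 (11.62) and Col5a3 in Double-Het replicate 18 (4.80), all as log2 levels. Wild-type replicate 3 was low and Foxa2+/- replicate 14 high within their genotypes.

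The mutant genotypes differed from each other, by the limma test of that difference, in 7 collagens between Falcor-/- and Foxa2+/-. That is 21.2% of the collagens tested, where 16.7% of all genes differed. The differences were -1.19 for Col6a1, -1.06 for Col6a2, -1.10 for Col7a1, 0.64 for Col8a2, 2.19 for Col13a1, -2.08 for Col14a1 and -0.79 for Col23a1. Between Double-Het and Foxa2+/- they were -1.63 for Col6a1, -1.70 for Col6a2 and -3.59 for Col14a1, with 9.09% of collagens and 2.43% of all genes called. Between Double-Het and Falcor-/- they were -1.26 for Col5a2 and -2.34 for Col13a1. There 6.06% of collagens were called, near the 5.15% of all genes.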

How the results depend on the processing

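The Double-Het count of 15 collagens against wild type stayed between 13 and 15 when any 1 library of the compared genotypes was left out. In the same way, the Double-Het count of 3 against Foxa2+/- stayed at 3. Libraries of the genotypes not compared were not left out singly, although they enter the shared spread. Other counts moved more: from 1 (without wild-type replicate 1) to 10 (without Falcor-/- replicate 7) around 7 in Falcor-/- against wild type, from 2 (wild-type replicates 1, 4 or 5 out) to 9 (wild-type replicate 3 out) around 5 in Foxa2+/- against wild type, from 4 to 7 around 7 in Falcor-/- against Foxa2+/-, and from 1 to 5 around 2 in Double-Het against Falcor-/-. With library weights the counts were 12 in Foxa2+/- against wild type, 7 in Double-Het against Foxa2+/- and 6 in Double-Het against Falcor-/-, and with only the compared genotypes fitted they were 9 in Foxa2+/- against wild type and 4 in Double-Het against Falcor-/-. Without both Foxa2+/- replicate 14 and Falcor-/- replicate 10, an alternative chosen after seeing the data, Foxa2+/- had 8 called collagens, Falcor-/- 9 and Double-Het 15 against wild type. In that fit Col3a1 (-1.45, limma adjusted p = 0.0452) and Col5a2 (-0.90, adjusted p = 0.0350) passed in Falcor-/-. All 4 genotypes share 1 estimate of the spread per gene, so the Foxa2+/- libraries also enter the p-values of the other mutants. The cause of these moves was not tested. Signs turned only for differences near 0: leaving out 1 library, the Col6a1 difference of Foxa2+/- from wild type ran from -0.069 (Foxa2+/- replicate 13 out) to 0.22 (Foxa2+/- replicate 11 out), below 0 also with wild-type replicates 4 or 5 out, and the Col13a1 difference of Double-Het from Foxa2+/- ran from -0.38 (Double-Het replicate 15 out) to 0.071 (Double-Het replicate 16 out). No paired analysis was possible because the genotypes share no replicate number. With depth unknown, low levels such as those of Col5a3 and Col6a6 carry an error that cannot be stated.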
